A study of Mus musculus with 35 samples.

Results

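Late 2-cell mouse embryos in which the transcription factors SRF and DUX had both been targeted were compared with control embryos. The comparison took the 10 embryos titled Double-LOF and the 9 embryos titled Ctrl, 19 of the 35 embryos of the series, chosen by title alone. All embryos were of the F1(C57BL/6JxCBA/H) background, were microinjected as zygotes 24 h after the ovulation-inducing hormone hCG, grew in KSOM medium, and were collected at 48 h. Double-LOF embryos received an antisense oligonucleotide (ASO) against DUX together with an mRNA for a dominant negative form of SRF (SRF-DN), a variant that interferes with the normal protein. DUX-LOF embryos (9) received the ASO alone, SRF-LOF embryos (7) the SRF-DN mRNA alone, and Ctrl embryos (9) a scrambled ASO. No group received a control mRNA and SRF-LOF embryos received no oligonucleotide by these labels, so an effect of injected mRNA as such cannot be told apart from one of SRF-DN. Each embryo was 1 library, the labels name no litter, injection day or batch, and p-values therefore measure the spread between these embryos, which may be technical.

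At the 2-cell stage the mouse embryo begins to transcribe its own genome while RNAs stored by the oocyte are degraded. DUX is a double homeodomain factor that is itself transcribed at this time. In mouse embryonic stem cells it binds and activates 2-cell genes such as the Zscan4 cluster, and the MT2_Mm long terminal repeats (LTRs) that serve as promoters of the endogenous retrovirus MERVL. SRF binds CArG boxes together with its cofactors and is best known in somatic cells as the activator of immediate early genes and of genes of the actin cytoskeleton.

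Smart-seq+5', an adaptation of Smart-seq2, yields reads from inside transcripts (internal reads) and reads from their 5' ends, counted separately for each embryo. Internal gene counts ranged from 220921 to 1437276 in Double-LOF embryos (median 844109) and from 943657 to 2039475 in Ctrl embryos (median 1032067). Repeat rows held 15.87 to 39.97% of gene and repeat counts in Double-LOF embryos and 13.9 to 30.79% in Ctrl embryos. Double-LOF 6 was the shallowest library, and Double-LOF 7 and 10 had the highest repeat shares of their group, so the main counts are also given without these 3. The first principal component, with 47.1% of the variance of the 1000 most variable genes, spread embryos within groups, from -48.91 to 50.16 in Double-LOF and from -42.31 to 60.24 in Ctrl. The second component (15.9%) separated the groups, with every Double-LOF embryo at -1.54 or above and every Ctrl embryo at -6.28 or below. Markers of cumulus cells summed to at most 22.6 CPM, counts scaled to each library's gene counts, in Double-LOF and 32.4 CPM in Ctrl embryos, with Fshr and Ptx3 at 0 in both. Sperm markers summed to at most 4.9 CPM in Double-LOF and 19.7 CPM in Ctrl embryos. Blood markers summed to 38.2 to 129 CPM in Double-LOF and 15.6 to 159 CPM in Ctrl embryos, with Hbb-bs, Hbb-bt and Tyrobp at 0 in both. Of these blood markers Cd68 had a median of 36.8 CPM in Double-LOF and 8.1 CPM in Ctrl embryos (log2 difference 1.39, adjusted p = 0.057, and 1.74, adjusted p = 0.022 in 5' reads), Hba-a1 35.9 and 18.2 CPM, and Lyz2 10.2 and 3.04 CPM. Their part in the results was not tested.

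**Figure D1:**
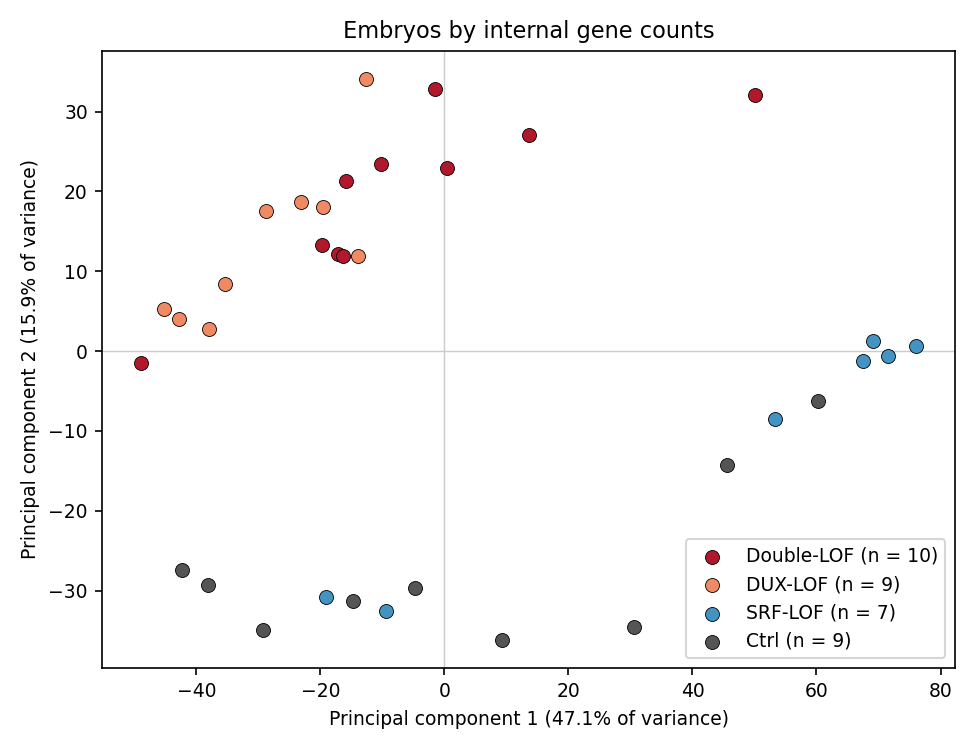
First and second principal components of log2 CPM of the 1000 most variable genes in internal reads, 1 point per embryo, coloured by group. Along the second component Double-LOF embryos lie between -1.54 and 32.79 and DUX-LOF embryos between 2.73 and 34.1, above all Ctrl embryos (-36.16 to -6.28), while the first component spreads embryos within each group.

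The row of Srf, which encodes the targeted factor (chr17:46548329-46556175, GRCm38), held 217, 588 and 1658 CPM in the lowest, median and highest Double-LOF embryo, against 11.7, 20.2 and 41.2 CPM in Ctrl embryos. All 10 Double-LOF embryos lay above all Ctrl embryos, with a log2 difference of 4.82 ± 0.43 (SE; adjusted p = 6.9e-10). Reads of the injected SRF-DN mRNA and of the embryo's own Srf transcripts fall on the same row, so this value shows that the mRNA was present and says nothing of the endogenous gene. Duxf3, the row of the Dux repeat array (chr10:58229979-58232675), had 0, 7.90 and 34.3 CPM in Double-LOF embryos, against 0, 7.96 and 23.8 CPM in Ctrl embryos. The groups overlapped throughout (log2 difference 0.32 ± 0.78, adjusted p = 0.82), and in 5' reads the difference was -0.86 (adjusted p = 0.55). The Duxf3 row therefore does not check the DUX label, and groups are named here by their labels.

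Of 11940 genes tested, 2314 (19.4%) differed between Double-LOF and Ctrl embryos at an adjusted p under 0.05, the threshold used throughout. Of these, 1144 (9.58% of genes tested) were higher and 1170 (9.8%) lower in Double-LOF embryos, and the median log2 difference of all genes was -0.08. The change was at least 2-fold for 913 of the higher and 912 of the lower genes, and at least 8-fold for 128 higher and 57 lower ones. The 5' reads called 2535 of 11749 genes (21.6%), 1348 higher (11.5%) and 1187 lower (10.1%). Of the 1050 genes higher in internal reads that were tested in 5' reads, 839 were called higher there and 0 lower, and of 1107 lower genes 824 were called lower and 2 higher. The values of 99 higher and 54 lower genes did not overlap between the groups, which held for 154 (1.29%) of all genes tested. Lower genes were the more abundant ones, with a median of 59.5 CPM against 28.6 CPM for higher genes and 28.9 CPM for all genes tested. Both directions were led by protein-coding genes (1047 higher and 1035 lower of 10611), with 28 higher and 30 lower among 369 lincRNAs.

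The count was 2153 without the 3 doubted Double-LOF libraries. With scaling to the ERCC spike-in RNAs it was 1246, of which 734 were higher and 512 lower.

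**Figure D2:**
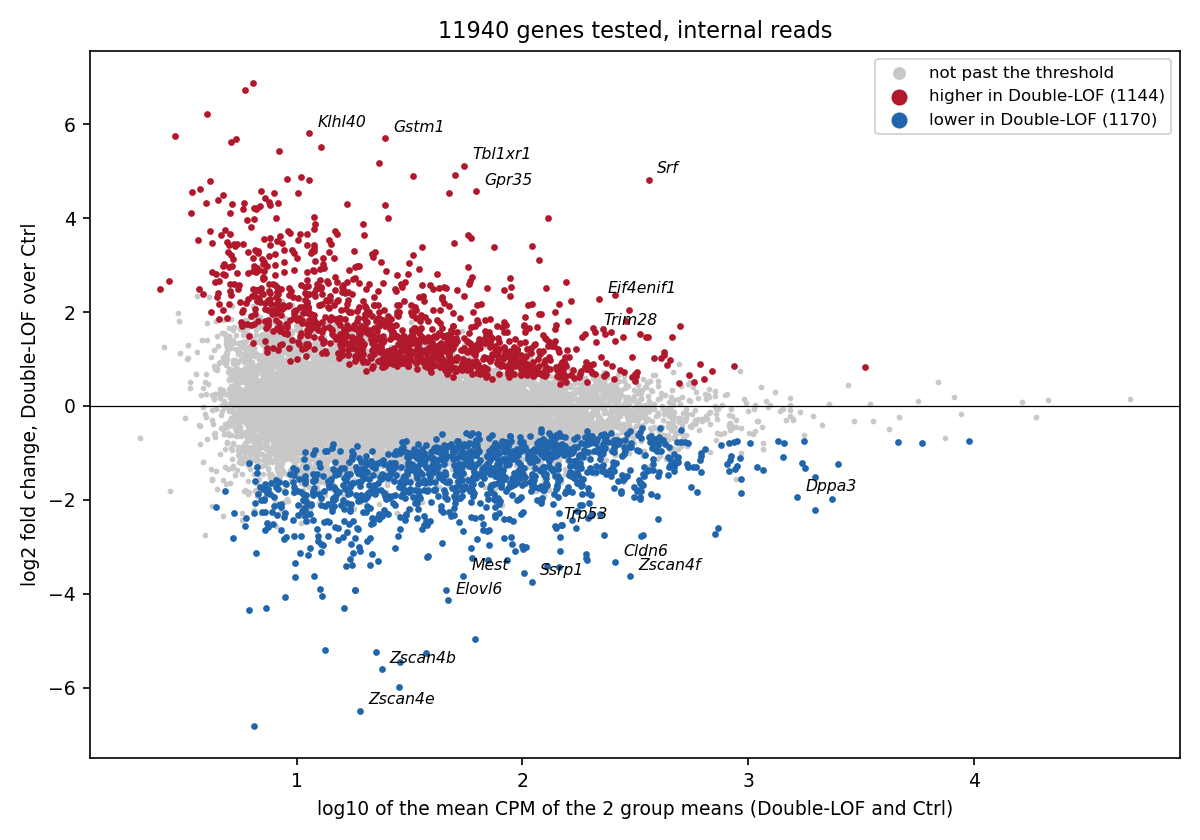
Log2 difference of Double-LOF minus Ctrl embryos in internal reads (vertical axis) against the log10 of the mean CPM of both groups (horizontal axis) for the 11940 genes tested. The 1144 genes called higher and 1170 called lower are coloured, and 16 genes named in the text are labelled.

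Among genes higher in Double-LOF embryos, the largest rises were in genes that Ctrl embryos barely expressed. Klhl40 encodes a thin-filament protein of skeletal muscle (chr9:121777607-121783818). It had 0, 23.6 and 60.6 CPM in Double-LOF embryos, against 0, 0 and 1.47 CPM in Ctrl embryos. In 9 of 10 Double-LOF embryos it exceeded every Ctrl embryo (log2 change 5.81 ± 0.74, adjusted p = 9.6e-07). Over each group its counts were 238 in Double-LOF and 3 in Ctrl embryos, a ratio of 95.5 with a counting interval of 32.3 to 466.5. Tbl1xr1, a subunit of the NCoR and SMRT corepressor complexes (chr3:22076652-22216594), had 28.8, 99.5 and 197 CPM in Double-LOF embryos, against 0, 1.24 and 11.1 CPM in Ctrl embryos. No Double-LOF embryo reached down to the Ctrl range (log2 change 5.12 ± 0.52, adjusted p = 7.8e-09).

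Ppp1r3d, which targets protein phosphatase 1 to glycogen, had 32.4, 108 and 158 CPM in Double-LOF embryos, against 0, 3.34 and 7.35 CPM in Ctrl embryos (log2 change 4.91 ± 0.48, adjusted p = 3.7e-09). The G-protein-coupled receptor gene Gpr35 had 15.1, 104 and 365 CPM in Double-LOF embryos, against 0, 3.18 and 11.1 CPM in Ctrl embryos (4.57 ± 0.54). Mfap2, a microfibril glycoprotein gene, had 23.8, 85.0 and 185 CPM in Double-LOF embryos, against 0, 2.94 and 9.02 CPM in Ctrl embryos (4.54 ± 0.54). All 10 Double-LOF embryos lay above all Ctrl embryos for each of these 3 genes. The potassium channel subunit gene Kcne1 showed the same separation, with 11.1, 46.1 and 86.4 CPM in Double-LOF embryos and 0, 0.53 and 5.56 CPM in Ctrl embryos (5.17 ± 0.73). The glutathione S-transferase gene Gstm1 (log2 change 5.71 ± 0.95) and Tnfrsf4, the gene of OX40 (5.52 ± 0.78), were also among the 12 largest rises under the naming rule given below. So were Slc3a1, the amino acid transporter subunit (4.81 ± 0.76), the cytochrome P450 gene Cyp2c65 (4.54 ± 0.77) and Hhipl2 (4.30 ± 0.73). These log2 values rest on Ctrl levels near 0 and moved by more than 1.5-fold when 1 Ctrl embryo was left out: to 6.63 for Klhl40 without Ctrl 1, to 6.38 for Gstm1 and 6.75 for Tnfrsf4 without Ctrl 6, and to 5.87 for Kcne1 without Ctrl 4. Likewise the values became 5.97 for Slc3a1 without Ctrl 6, 5.43 for Cyp2c65 without Ctrl 10 and 5.21 for Hhipl2 without Ctrl 4.

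In all, 15 called genes (11 protein-coding) had at most 3 internal counts over the whole Ctrl group, and 4 of them had none. Spata20, a testis-expressed gene, had 144 counts in Double-LOF embryos and 0 in Ctrl embryos, at least 57.8-fold higher when the Ctrl count is set at 3. The corresponding bounds were at least 49.0-fold for Lsmem1 (122 counts against 0), 36.1-fold for Apol8 (90 against 0) and 24.1-fold for Nt5dc2 (60 against 0). These genes were chosen for their low Ctrl counts after the values were seen.

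The number of genes detected was also higher at equal depth. With every library reduced to 220921 internal gene counts, 11239, 14448 and 15512 genes were expected to be seen in the lowest, median and highest Double-LOF embryo, against 11982, 13071 and 13459 genes in Ctrl embryos. The difference in means was 1154 genes (two-sided exact permutation test, p = 0.0164, adjusted p = 0.0328 over 4 tests of single values). In 7 Double-LOF embryos the number lay above all Ctrl embryos, and in Double-LOF 7 it lay below them. In 5' reads at a depth of 505157 the difference was 1781 genes (p = 0.00788, adjusted p = 0.0315), with 9 Double-LOF embryos above all Ctrl embryos and 1 below.

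The Zscan4 cluster, SCAN-domain zinc finger genes of the 2-cell stage, was lower. Of its 6 genes tested, 5 fell in internal reads (83.3%, against 9.8% of all genes) and 6 in 5' reads. The median log2 differences were -3.11 and -3.31. Promoter sequences of Zscan4f and Zscan4b (RefSeq, GRCm38.p6, bases -250 to -1 from the annotated start) are shown because both hold TGATTNAAT, a shortened form of the DUX motif. Capitals mark the match on either strand, at -161 in Zscan4f (chr7:11397665-11397914, plus strand) and at -72 in Zscan4b (chr7:10905051-10905300, minus strand). The form TGATTNAAT was chosen after the full motif had been found in none of the promoters of called genes.
Zscan4f: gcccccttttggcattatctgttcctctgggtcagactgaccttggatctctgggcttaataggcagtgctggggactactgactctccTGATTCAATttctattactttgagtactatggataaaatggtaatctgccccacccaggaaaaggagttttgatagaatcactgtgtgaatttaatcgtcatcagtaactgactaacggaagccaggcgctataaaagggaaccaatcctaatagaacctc
Zscan4b: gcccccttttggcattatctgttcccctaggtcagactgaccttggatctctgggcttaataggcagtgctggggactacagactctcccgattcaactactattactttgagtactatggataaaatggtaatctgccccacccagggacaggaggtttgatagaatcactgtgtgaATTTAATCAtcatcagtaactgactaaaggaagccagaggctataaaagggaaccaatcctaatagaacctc
The shortened motif occurs in 0.718% of 32851 promoters, in 8 of 853 promoters of lower genes (0.938%), in 3 of 868 of higher genes (0.346%) and in 52 of 8686 of genes tested (0.599%). Of the other members looked at, Zscan4c also holds the shortened motif, Zscan4d does not, and Zscan4e has no promoter among these sequences. A match describes the letters of these windows only, and the full motif occurs in 0.0335% of promoters.

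Zscan4f (chr7:11397915-11402318) had 2.94, 47.5 and 75.3 CPM in Double-LOF embryos, against 33.4, 198 and 1944 CPM in Ctrl embryos (log2 change -3.62 ± 0.63, adjusted p = 8.7e-05). The groups overlapped, with 4 Double-LOF embryos below all Ctrl embryos. Zscan4e (chr7:11306378-11310682) had 0, 0 and 1.17 CPM in Double-LOF embryos, against 0.782, 7.17 and 160 CPM in Ctrl embryos (-6.49 ± 1.13, adjusted p = 8.8e-05). Here 9 Double-LOF embryos lay below all Ctrl embryos. Over the groups Zscan4e had 3 counts in Double-LOF and 305 in Ctrl embryos. Zscan4b (chr7:10900740-10905050) had 0, 0.360 and 3.23 CPM in Double-LOF embryos, against 0, 3.13 and 220 CPM in Ctrl embryos (-5.60 ± 1.11, adjusted p = 0.00042). The groups overlapped, with Ctrl 1, 3, 4, 5 and 6 at 0 to 3.13 CPM and Ctrl 2, 8, 9 and 10 at 38.3 to 220 CPM. Without Ctrl 9 the values were -5.74 for Zscan4e and -4.68 for Zscan4b. Summed over the cluster, Double-LOF embryos had 38.2, 294 and 492 CPM, against 142, 726 and 5008 CPM in Ctrl embryos. In that sum 1 Double-LOF embryo lay below all Ctrl embryos. Ctrl embryos thus ranged widely in these genes, and because the cluster's copies are near-identical, reads cannot be assigned to single members with certainty.

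Other families linked to DUX were lower in part, where 9.8% of all genes tested fell and 9.58% rose. Of 10 Eif1a-like 2-cell genes, which resemble a translation initiation factor, 5 fell (median log2 difference -1.84), among them Gm5039 with 0.98, 38.3 and 75.8 CPM in Double-LOF embryos and 7.43, 83.5 and 1424 CPM in Ctrl embryos (-3.28 ± 0.67, adjusted p = 0.00061, and -2.57 without Ctrl 8). The count for this family was 2 under spike-in scaling, and the called member Gm8332 differed by 0.24 in 5' reads (adjusted p = 0.84). Summed over the family, Double-LOF embryos had 48.0, 633 and 1262 CPM, against 106, 610 and 5581 CPM in Ctrl embryos. The medians of the sum were thus close, the highest Ctrl values lay far above, and 1 Double-LOF embryo lay below all Ctrl embryos. PRAME-like genes, a family of leucine-rich repeat genes of the germline and early embryo, had 2 higher and 6 lower members of 20. The rises included Pramef17 (2.58 ± 0.46, adjusted p = 0.00012). With spike-in scaling 1 PRAME-like gene was higher and 2 were lower. In the Tdpoz and Usp17l families of BTB-domain and deubiquitinase genes 1 of 10 was higher and 2 lower. With spike-in scaling all 3 calls were lost (adjusted p = 0.063 to 0.22), and those of Usp17la and Usp17ld were lost in 10 and 13 of the 19 fits that left out 1 embryo. In 5' reads 1 of 9 was higher and 0 lower. In the Tcstv family 1 of 5 was lower (20%), and 0 with spike-in scaling. These genes too have near-identical copies.

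Of 23 other DUX-linked 2-cell genes, 5 fell (21.7%, against 9.8% of all genes) and 4 rose (17.4%, against 9.58%). Ddit4l, an inhibitor of mTOR signalling, had 1.96, 32.2 and 69.8 CPM in Double-LOF embryos, against 105, 196 and 810 CPM in Ctrl embryos. All 10 Double-LOF embryos lay below all Ctrl embryos (-3.16 ± 0.46, adjusted p = 6.9e-06). The transmembrane gene Tmem92 fell by 1.79 on the log2 scale, whereas the ABC transporter gene Abcb5 rose by 2.24. The double homeobox relative Duxbl1 had 1.94, 6.76 and 31.4 CPM in Double-LOF embryos, against 37.1, 56.8 and 81.2 CPM in Ctrl embryos. Its groups did not overlap (-2.19 ± 0.46, adjusted p = 0.00082), although the call did not hold in 5' reads (-1.29, adjusted p = 0.058).

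The 10 late 2-cell markers are all members of other lists as well, so their count repeats values of those lists. Of the 10, 6 were lower (60%, against 9.8% of all genes) and 0 higher. Without the 3 doubted libraries or with spike-in scaling 3 were lower. Their summed level was 1374, 1833 and 2264 CPM in Double-LOF embryos, against 2836, 4590 and 7332 CPM in Ctrl embryos, with no overlap. Dppa3 made up most of that sum in Ctrl embryos, and Oas1d, a maternal gene of the oligoadenylate synthetase family, had a median of 534 CPM in Double-LOF and 357 CPM in Ctrl embryos (0.15, adjusted p = 0.82). All 10 markers were thus detected in both groups. Dppa3, Oas1d and Zp3 also stand in the lists of maternal and zona transcripts, so neither their presence nor the sum measures the stage. In bulk RNA of whole embryos, fewer expressing cells and less RNA per cell cannot be told apart.

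MERVL itself was not called. MERVL-int, the internal part of the retrovirus, had 2595, 11220 and 24560 CPM in Double-LOF embryos, against 6021, 10800 and 22730 CPM in Ctrl embryos (log2 difference 0.11 ± 0.32, adjusted p = 0.84). Its 5' reads differed by 0.26 (adjusted p = 0.63). MT2_Mm, its LTR, differed by -0.20 ± 0.32 in internal reads (adjusted p = 0.71). In 5' reads, which start at the promoter, MT2_Mm had 266, 988 and 1239 CPM in Double-LOF embryos, against 954, 1257 and 3659 CPM in Ctrl embryos, and was lower (-1.08 ± 0.32, adjusted p = 0.017).

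The related subtype MT2-Mm_i, named after its values were seen, fell by 1.0 ± 0.31 in internal reads (adjusted p = 0.028) and by 1.59 in 5' reads (adjusted p = 0.0072). Its internal call was lost without Double-LOF 1, Ctrl 2, Ctrl 8 or Ctrl 10, with values between -1.11 and -0.81 over all embryos left out, and with spike-in scaling (-0.74, adjusted p = 0.19). The sum of 7 MT2 rows in 5' reads was 4886, 25130 and 38100 CPM in Double-LOF embryos, against 14400, 35050 and 94020 CPM in Ctrl embryos. The difference of the mean log2 sums was -0.86, which did not pass the two-sided exact permutation test (p = 0.0761, adjusted p = 0.101), and it was -1.03 (p = 0.0373) without Ctrl 1 and -1.01 (p = 0.043) without Ctrl 6. All 7 rows share reads among near-identical copies.

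SRF targets gave a mixed picture. Of 36 actin cytoskeleton targets 4 rose and 4 fell (11.1% in each direction), with a median of -0.02 (9.58% of all genes rose and 9.8% fell). Cfl1, the actin-severing protein cofilin (chr19:5490455-5495201), had 173, 301 and 444 CPM in Double-LOF embryos, against 533, 762 and 954 CPM in Ctrl embryos. Its groups did not overlap (-1.31 ± 0.22, adjusted p = 6.6e-05). Myl6, a myosin light chain, had 28.4, 56.0 and 81.3 CPM in Double-LOF embryos, against 72.9, 184 and 244 CPM in Ctrl embryos (-1.57 ± 0.30, adjusted p = 0.00024), with 8 of 10 Double-LOF embryos below all Ctrl embryos. Acta1, skeletal muscle actin, had 0, 19.2 and 46.8 CPM in Double-LOF embryos, against 0, 1.24 and 10.2 CPM in Ctrl embryos (2.92 ± 0.62, adjusted p = 0.00086). It exceeded all Ctrl embryos in 9 of 10 Double-LOF embryos. The actin nucleator gene Diaph1 rose by 1.30 ± 0.27. Summed over the list, Double-LOF embryos had 2249, 2774 and 3056 CPM, against 3037, 3441 and 3721 CPM in Ctrl embryos. Of the 10 Double-LOF embryos, 9 lay below all Ctrl embryos. The median sum was 2805 CPM in DUX-LOF and 3856 CPM in SRF-LOF embryos. Abundant genes such as Cfl1 weigh most in a sum, and 18 of the 36 members lay above 0 and 18 below.

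Of 19 immediate early targets, 2 rose (10.5%, against 9.58% of all genes) and 4 fell (21.1%, against 9.8%), with a median of -0.35. Dusp5, a phosphatase of nuclear ERK (chr19:53529109-53542431), had 0, 1.67 and 18.6 CPM in Double-LOF embryos, against 3.71, 27.2 and 70.0 CPM in Ctrl embryos. It was below all Ctrl embryos in 8 of 10 Double-LOF embryos (-3.27 ± 0.72, adjusted p = 0.0013, and -4.50 without Double-LOF 10). The orphan nuclear receptor gene Nr4a2 had 1.58, 23.1 and 40.7 CPM in Double-LOF embryos, against 0, 0 and 4.45 CPM in Ctrl embryos (4.02 ± 0.70, adjusted p = 9.5e-05), with 9 of 10 above all Ctrl embryos. Klf10, a zinc finger gene of the TGF-beta response, fell by 2.11 ± 0.48. None of the 4 SRF cofactor genes tested was called in internal reads by edgeR (1 at an unadjusted p under 0.05) or by DESeq2, and Mrtfa, Mrtfb, Elk1 and Elk4 had log2 differences of 0.10 to 0.75. In 5' reads Mrtfa was called higher by edgeR (1.46 ± 0.37, adjusted p = 0.0042).

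Promoters of the called targets Dusp5, Myl6 and Acta1 and of Srf itself are shown because they hold CArG boxes, marked in capitals (RefSeq, GRCm38.p6, bases -120 to -21). Dusp5 has matches starting at -82 and -72 (chr19:53529025-53529124, plus strand), Myl6 at -50 (chr10:128493030-128493129, minus strand), Acta1 at -73 (chr8:123894796-123894895, minus strand) and Srf at -82 and -62 (chr17:46556183-46556282, minus strand).
Dusp5: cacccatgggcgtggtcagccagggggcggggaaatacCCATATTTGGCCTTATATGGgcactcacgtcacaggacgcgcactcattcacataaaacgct
Myl6: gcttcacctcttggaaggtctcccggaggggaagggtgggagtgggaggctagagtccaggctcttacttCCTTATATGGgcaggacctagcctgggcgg
Acta1: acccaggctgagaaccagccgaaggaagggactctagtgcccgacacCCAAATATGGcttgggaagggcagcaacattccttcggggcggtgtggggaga
Srf: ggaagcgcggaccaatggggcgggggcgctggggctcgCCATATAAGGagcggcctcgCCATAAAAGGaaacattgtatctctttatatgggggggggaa
The 2 CArG boxes of Dusp5 adjoin without overlap. A CArG box occurs in 1.63% of all promoters, in 17 of 853 promoters of lower genes (1.99%), in 13 of 868 of higher genes (1.5%) and in 135 of 8686 of genes tested (1.55%), counting both strands. Among the promoters shown, Dusp5 and Myl6 belong to genes that fell and Acta1 to a gene that rose. Myl6 has a match in 1 of its 2 promoters. Of other called targets, Cfl1, Nr4a2 and the immediate early gene Atf3 have a promoter without a CArG box. Diaph1 and Klf10 have no promoter among these sequences.

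**Figure D3:**
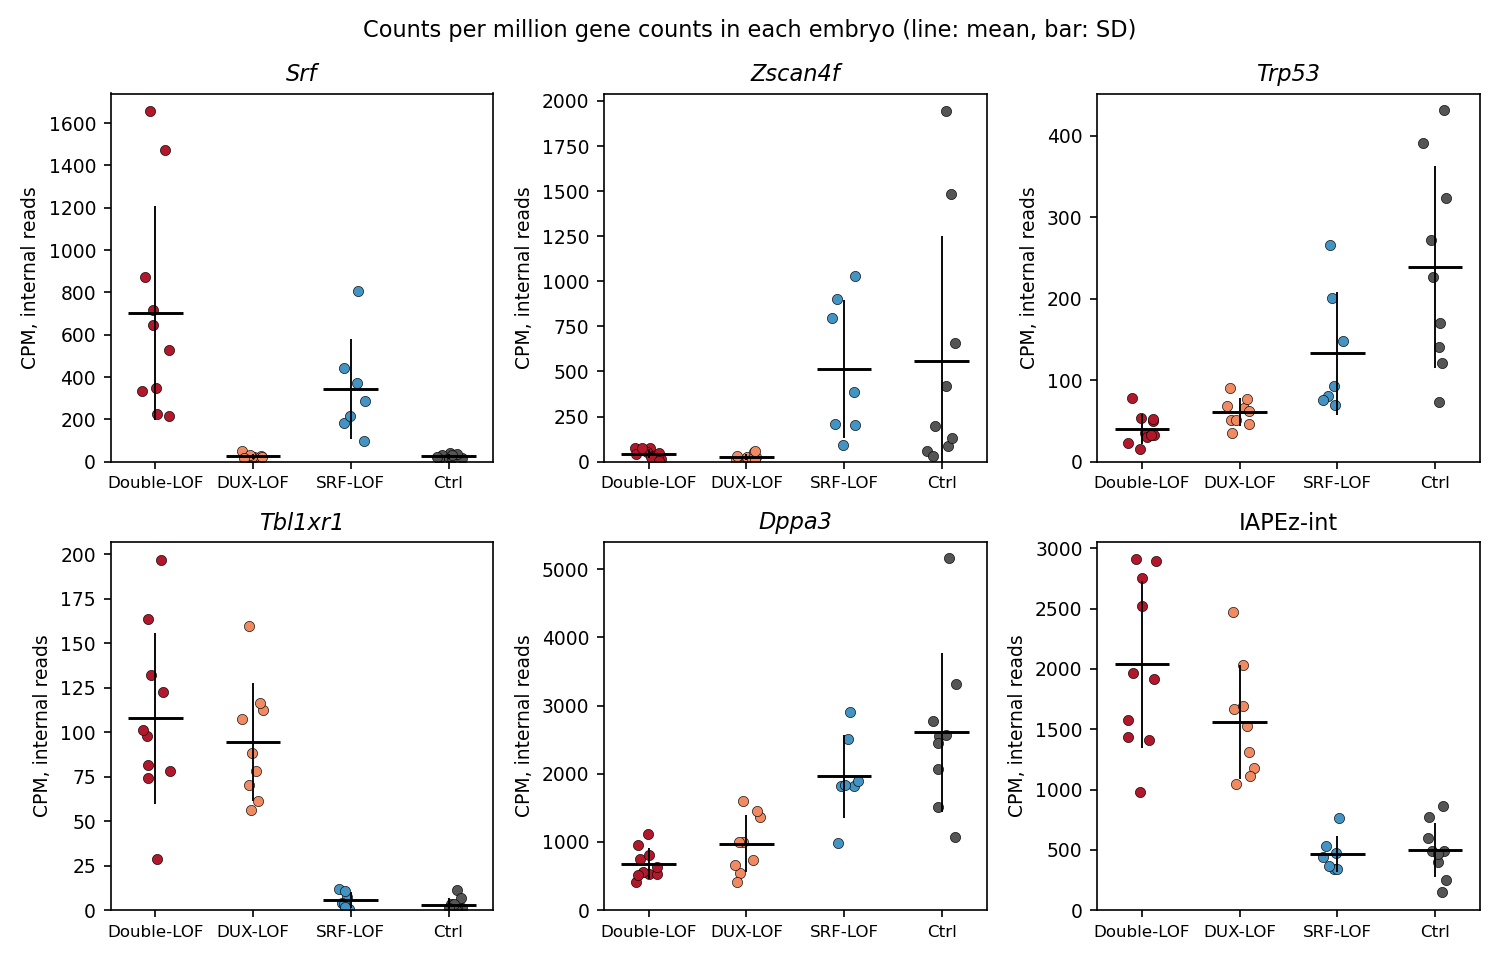
Internal-read CPM of Srf, Zscan4f, Trp53, Tbl1xr1, Dppa3 and the repeat IAPEz-int, 1 point per embryo, with the group mean as a horizontal line and the SD as a vertical bar. Srf, Tbl1xr1 and IAPEz-int show no overlap between Double-LOF and Ctrl embryos, while Zscan4f shows the wide range of Ctrl embryos, 33.4 to 1944 CPM.

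Among other genes with the largest falls, Mest, an imprinted gene of the hydrolase fold family (chr6:30723547-30748465), had 2.94, 6.16 and 25.3 CPM in Double-LOF embryos, against 49.9, 77.0 and 167 CPM in Ctrl embryos. Every Double-LOF embryo was below every Ctrl embryo (-3.63 ± 0.33, adjusted p = 7.7e-10). Ssrp1, a subunit of the FACT histone chaperone, had 0, 11.7 and 42.5 CPM in Double-LOF embryos, against 104, 185 and 349 CPM in Ctrl embryos (-3.74 ± 0.37, adjusted p = 3.7e-09), again without overlap. In 5' reads Ssrp1 fell by 1.83, less than in internal reads. Cldn6, a tight-junction claudin, had 4.74, 49.97 and 102 CPM in Double-LOF embryos, against 239, 417 and 1026 CPM in Ctrl embryos (-3.32 ± 0.54, adjusted p = 4e-05). Fgf1, a fibroblast growth factor gene, fell by 3.28 ± 0.44, and the kinesin gene Kifc2 by 3.30 ± 0.67.

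The fatty acid elongase gene Elovl6 had 0, 2.98 and 13.7 CPM in Double-LOF embryos, against 0, 96.8 and 261 CPM in Ctrl embryos (-4.14 ± 0.94, adjusted p = 0.0018). Mid1ip1, a regulator of fatty acid synthesis, had a median of 0 CPM in Double-LOF embryos and of 18.4 CPM in Ctrl embryos (-3.89 ± 1.07, adjusted p = 0.0089, and -3.18 without Ctrl 5). In both genes the groups overlapped, since at least 1 Ctrl embryo had 0 CPM. Cpeb2, which binds cytoplasmic polyadenylation elements, fell by 3.40 ± 0.68.

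Stored maternal transcripts outside the listed complexes were lower or not called. Of 31 tested, 8 fell (25.8%, against 9.8% of all genes) and 0 rose (9.58% of all genes). The median was -0.54, with 27 of 31 below 0. With spike-in scaling 3 of the 31 fell (median -0.40), and without the 3 doubted libraries 11 fell. Dppa3, the maternal factor Stella that protects 5-methylcytosine (chr6:122626410-122630272), had 410, 596 and 1122 CPM in Double-LOF embryos, against 1073, 2556 and 5160 CPM in Ctrl embryos. It lay below all Ctrl embryos in 9 of 10 Double-LOF embryos (-1.94 ± 0.26, adjusted p = 2.9e-06). The oocyte gene Rfpl4 fell by 1.82 ± 0.39, and Gtsf1, a piRNA pathway zinc finger gene, by 1.46 ± 0.40, though the call of Gtsf1 was lost under spike-in scaling (adjusted p = 0.055). In the zona pellucida and oocyte-secreted list 2 of 11 rose and 2 fell (18.2% in each direction). Zp3, the sperm-binding zona protein, had 11, 19.9 and 56.9 CPM in Double-LOF embryos, against 50.7, 151 and 277 CPM in Ctrl embryos (-2.41 ± 0.40, adjusted p = 4.5e-05). Oosp3, an oocyte-secreted protein, fell by 2.23 ± 0.39 without overlap, whereas Astl, the protease ovastacin that hardens the zona, rose by 1.29 ± 0.33. None of the 7 Obox homeobox genes was called in internal reads by edgeR (0 at an unadjusted p under 0.05) or by DESeq2, with log2 differences of -1.16 to 1.08. In 5' reads Obox1 was called higher by edgeR (1.73 ± 0.42, adjusted p = 0.003), a call lost without the 3 doubted libraries.

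In the list for mRNA storage and decay 2 of 26 rose (7.69%, against 9.58% of all genes) and 5 fell (19.2%, against 9.8%). Eif4enif1, the eIF4E-binding transporter 4E-T, had 169, 352 and 487 CPM in Double-LOF embryos, against 32.9, 67.4 and 112 CPM in Ctrl embryos. Its groups did not overlap (2.28 ± 0.22, adjusted p = 2.9e-09). Lsm14b, an RNA-binding protein of oocytes, rose by 1.75 ± 0.39, and the P-body helicase gene Ddx6 fell by 1.72 ± 0.35.

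Genes of housekeeping machineries moved down far more often than up. Of 79 ribosomal protein genes 23 fell and 1 rose (median -0.94), and of 74 ribosome biogenesis genes 16 fell and 0 rose (median -0.68). Translation initiation had 19 lower and 1 higher of 45 (median -0.75), RNA polymerase subunits 13 lower and 2 higher of 31 (median -0.74), and the proteasome 15 lower and 0 higher of 34 (median -0.94). Nuclear genes of oxidative phosphorylation had 22 lower and 0 higher of 66 (median -0.78), the spliceosome 14 lower and 2 higher of 54 (median -0.47), and chaperones 14 lower and 0 higher of 32 (median -0.73). Over all genes tested 9.8% fell and the median was -0.08. None of the 13 mitochondrially encoded mRNAs was called by edgeR (0 at an unadjusted p under 0.05) or by DESeq2 (median -0.08).

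Counts of lower genes in 5' reads were 30 of 79 for ribosomal proteins, 19 of 45 for initiation, 14 of 34 for the proteasome and 26 of 74 for oxidative phosphorylation. Without the 3 doubted Double-LOF libraries 13 ribosomal proteins, 9 biogenesis factors and 8 RNA polymerase subunits were lower. With spike-in scaling the lower counts were 12 for ribosomal proteins, 6 for ribosome biogenesis, 9 for initiation, 5 for RNA polymerases, 8 for the proteasome, 11 for oxidative phosphorylation, 11 for the spliceosome and 5 for chaperones, while medians stayed between -1.01 and -0.59.

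Rps27a, a ribosomal protein made as a ubiquitin fusion, had 0, 19.2 and 74.1 CPM in Double-LOF embryos, against 42.0, 142 and 183 CPM in Ctrl embryos (-2.33 ± 0.46, adjusted p = 0.00043). The initiation helicase gene Eif4a1 had 272, 372 and 552 CPM in Double-LOF embryos, against 593, 728 and 1434 CPM in Ctrl embryos, with no overlap (-1.15 ± 0.17, adjusted p = 1.2e-05). Srsf5, a serine- and arginine-rich splicing factor, had 52.1, 139 and 224 CPM in Double-LOF embryos, against 282, 485 and 751 CPM in Ctrl embryos (-1.93 ± 0.27, adjusted p = 4.9e-06). Hspa9, the mitochondrial HSP70 mortalin, had 12.9, 29.0 and 122 CPM in Double-LOF embryos, against 198, 264 and 328 CPM in Ctrl embryos (-2.53 ± 0.30, adjusted p = 2.2e-07). Neither Srsf5 nor Hspa9 overlapped between the groups. Polr2f, a subunit shared by the 3 nuclear RNA polymerases, fell by 0.82 ± 0.19 (not called with spike-in scaling), and Polr3a, the largest subunit of RNA polymerase III, rose by 1.42 ± 0.30. The cytosolic chaperone gene Hsp90ab1 fell by 1.34 ± 0.22, the proteasome gene Psmd1 by 1.18 ± 0.21, the ATP synthase gene Atp5b by 0.78 ± 0.15 (not called with spike-in scaling) and the small nuclear ribonucleoprotein gene Snrpg by 1.54 ± 0.29.

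**Figure D4:**
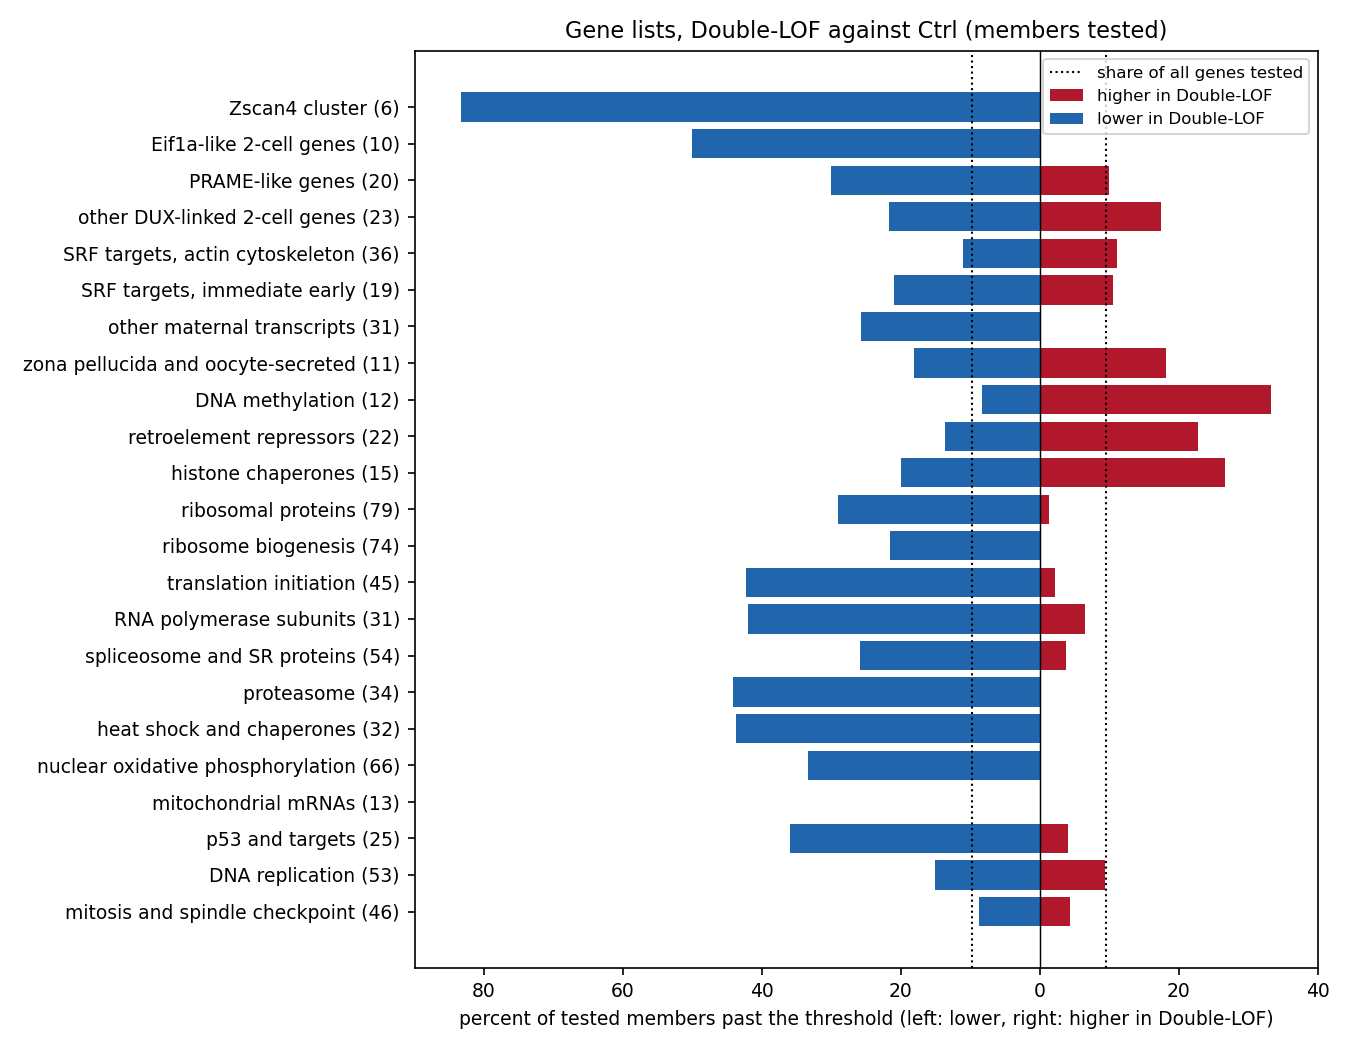
Percent of the tested members of each gene list that were called lower (bars to the left) or higher (bars to the right) in Double-LOF against Ctrl embryos, with the number tested in brackets. Dotted lines mark the shares of all genes tested, 9.8% lower and 9.58% higher; the Zscan4 cluster (5 of 6), the proteasome (15 of 34) and translation initiation (19 of 45) reach well past the left line.

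Of 12 DNA methylation genes 4 rose (33.3%, against 9.58% of all genes) and 1 fell (8.33%, against 9.8%). Uhrf1, which directs the maintenance methyltransferase to replicated DNA, had 181, 502 and 800 CPM in Double-LOF embryos, against 75.7, 166 and 301 CPM in Ctrl embryos. It exceeded all Ctrl embryos in 9 of 10 Double-LOF embryos (1.54 ± 0.27, adjusted p = 9.7e-05). Tet3, the oxidase that acts on the paternal genome of the zygote, had 318, 628 and 938 CPM in Double-LOF embryos, against 73.3, 224 and 449 CPM in Ctrl embryos (1.47 ± 0.27, adjusted p = 0.00015). The related oxidase gene Tet1 rose by 1.89 ± 0.41, and Dnmt1, the maintenance methyltransferase gene, by 1.21 ± 0.28, a call lost under spike-in scaling (adjusted p = 0.072).

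Retroelement repressors and histone chaperones went both ways. Of 22 repressors 5 rose (22.7%) and 3 fell (13.6%), and of 15 chaperone genes 4 rose (26.7%) and 3 fell, where 9.58% of all genes rose and 9.8% fell. Trim28, the corepressor of KRAB zinc finger proteins, had 211, 307 and 433 CPM in Double-LOF embryos, against 7.42, 105 and 174 CPM in Ctrl embryos. Its groups did not overlap (1.58 ± 0.37, adjusted p = 0.0026). Ubn1, a subunit of the HIRA complex that deposits histone H3.3, had 71.1, 126 and 208 CPM in Double-LOF embryos, against 32.9, 47.8 and 68.4 CPM in Ctrl embryos, also without overlap (1.43 ± 0.23, adjusted p = 2.6e-05). Chaf1a, the large subunit of the CAF-1 chaperone, rose by 1.18 ± 0.22. Ehmt1, a histone H3 lysine 9 methyltransferase, rose by 1.39 ± 0.31, while the deacetylase gene Hdac2 fell by 1.15 ± 0.26.

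The tumour suppressor gene Trp53 (chr11:69580359-69591873) had 15.2, 33.9 and 78.3 CPM in Double-LOF embryos, against 73.7, 226 and 431 CPM in Ctrl embryos. It lay below all Ctrl embryos in 9 of 10 Double-LOF embryos (-2.55 ± 0.32, adjusted p = 5.8e-07). Of 25 genes in the list of p53 and its targets 9 fell (36%, against 9.8% of all genes) and 1 rose (4%, against 9.58%). The median was -0.73, and 5 fell without the 3 doubted libraries. The kinase gene Plk2 fell by 2.38 ± 0.50, and Mdm2, the ubiquitin ligase of p53, rose by 1.05 ± 0.23 (adjusted p = 0.054 with spike-in scaling), with 153, 218 and 271 CPM in Double-LOF embryos against 51.9, 99.7 and 166 CPM in Ctrl embryos. Gadd45a, a growth arrest gene, fell by 1.43 ± 0.33 in internal reads and was not called in 5' reads (-0.50, adjusted p = 0.25).

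Counts for cell cycle genes lay near those of all genes tested (9.58% higher, 9.8% lower). Of 53 replication genes 5 rose (9.43%) and 8 fell (15.1%), and of 46 mitosis genes 2 rose (4.35%) and 4 fell (8.7%). Cyclin E2 (Ccne2) had 36.0, 45.6 and 96.4 CPM in Double-LOF embryos, against 85.3, 148 and 335 CPM in Ctrl embryos (-1.63 ± 0.24, adjusted p = 7.1e-06). Geminin (Gmnn), the inhibitor of replication licensing, fell by 1.56 ± 0.27, while the transcription factor gene E2f1 rose by 1.16 ± 0.23. Cdc20, the activator of the anaphase-promoting complex, fell by 1.91 ± 0.45, and the spindle checkpoint kinase gene Bub1b rose by 1.71 ± 0.32.

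Germline genes had 3 higher (10.7%) and 2 lower (7.14%) members of 28, near the shares of all genes tested (9.58% and 9.8%). Taf7l, a testis variant of a TFIID subunit, had 117 counts in Double-LOF embryos and 1 in Ctrl embryos, a ratio of 140.9 with a counting interval of 24.8 to 5612, and the helicase gene Ddx4 (Vasa) fell by 1.91 ± 0.30 without overlap. Of 17 imprinted genes 3 fell (17.6%) and 0 rose in internal reads, against 2 lower and 3 higher of 18 in 5' reads. Phlda2, a placental growth gene, fell by 2.96 ± 0.71. Of 16 pluripotency factors 3 rose (18.8%) and 0 fell, among them Stat3, the effector of LIF signalling (0.81 ± 0.20, not called with spike-in scaling), and the retinoic acid receptor gene Rara (1.23 ± 0.33). In the list of RNA sensing and interferon effectors 1 of 13 rose (7.69%) and 3 fell (23.1%). Mavs, the mitochondrial antiviral adaptor gene, rose by 1.56 ± 0.37 (adjusted p = 0.051 with spike-in scaling), and the interferon regulatory factor gene Irf3 fell by 2.52 ± 0.59.

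Of 628 repeat subfamilies tested, 79 (12.6%) differed, 65 higher (10.4%) and 14 lower (2.23%) in Double-LOF embryos, with a median of 0.22. In 5' reads 99 of 626 (15.8%) differed, 81 higher (12.9%) and 18 lower (2.88%). With spike-in scaling the median of all repeats was 0.38, and 39 were higher and 2 lower. In a fit of these 2 groups alone 44 were higher and 7 lower, and without the 3 doubted Double-LOF libraries 85 differed. Repeat CPM are also scaled to gene counts, and polyA libraries can hold repeats within other transcripts, so a row is not a measure of retrotransposon RNA as such.

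LINE-1, the autonomous non-LTR retrotransposon, accounted for the largest group of rises. Of 96 L1 rows 27 rose and 0 fell, 89 were above 0 and the median was 0.53. Of all repeats 10.4% rose and 2.23% fell, with a median of 0.22. In 5' reads 45 of 94 L1 rows rose and 0 fell, where 12.9% of all repeats rose and 2.88% fell. The summed L1 level was 10420, 13820 and 19850 CPM in Double-LOF embryos, against 5774, 7526 and 15860 CPM in Ctrl embryos, so that the groups overlapped. The old subfamily L1MA4A had 7.90, 34.8 and 53.7 CPM in Double-LOF embryos, against 5.84, 11.8 and 20.3 CPM in Ctrl embryos (1.5 ± 0.31, adjusted p = 0.0017).

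IAP elements, a young and mobile mouse retrovirus family, had 5 higher (31.2%) and 1 lower (6.25%) of 16 listed rows. Of all repeats 10.4% were higher and 2.23% lower. IAPEz-int, the internal part of the family, had 983, 1942 and 2914 CPM in Double-LOF embryos, against 155, 488 and 862 CPM in Ctrl embryos. Its groups did not overlap (2.03 ± 0.26, adjusted p = 2.4e-07), and in 5' reads it rose by 2.57. Its LTR IAPLTR1_Mm had 145, 343 and 432 CPM in Double-LOF embryos, against 43.8, 82.3 and 144 CPM in Ctrl embryos (1.85 ± 0.22), again without overlap, but was not called in 5' reads (0.33, adjusted p = 0.38).

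In internal reads the largest falls among repeats with at least 10 CPM were IAPEY3C_LTR (-1.92), MLTR31D_MM (-1.76), MT2C_vii (-1.26), IAPLTR4 (-1.21), ERVB4_2-LTR_MM (-1.15) and RLTR1B-int (-1.03). Without single embryos, the calls of IAPEY3C_LTR (without Ctrl 2 or Ctrl 8, adjusted p up to 0.061) and RLTR1B-int (without Ctrl 8, adjusted p = 0.059) were lost, as were those of IAPLTR4 in 10 and ERVB4_2-LTR_MM in 12 of the 19 fits that left out 1 embryo. In 5' reads MT2C_vii alone of these 6 was called, and the differences were -0.05 for IAPEY3C_LTR, -0.15 for MLTR31D_MM and -0.02 for IAPLTR4. With spike-in scaling MLTR31D_MM alone was called. Of 58 ERVL rows 3 rose and 3 fell, and of 90 MaLR rows 3 rose and 2 fell, where 10.4% of all repeats rose and 2.23% fell. Of 25 listed SINE rows none was called by edgeR (0 at an unadjusted p under 0.05) or by DESeq2 (median 0.19).

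The Double-LOF embryos were next set against each single injection. DUX-LOF and SRF-LOF embryos are compared with the same 9 Ctrl embryos as Double-LOF embryos, so the 3 contrasts share their controls and are only given side by side. Of the 11940 genes, 2026 (17%) were called in DUX-LOF against Ctrl, 1044 higher (8.74%) and 982 lower (8.22%), and 199 (1.67%) in SRF-LOF against Ctrl, 129 higher (1.08%) and 70 lower (0.586%). Of 628 repeats 40 (6.37%) were called in DUX-LOF, 19 of them higher (3.03%), and 1 (0.159%) in SRF-LOF embryos.

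Tested directly, Double-LOF embryos differed from DUX-LOF embryos in 1 of 11940 genes (0.00838%), which was Srf (4.8 on the log2 scale). Without an adjustment 742 genes had p under 0.05, and DESeq2 also called 1. In 5' reads 2 of 11749 genes (0.017%) were called, Srf and Mir6976, a microRNA gene that lies within Srf and shares its reads. Among repeats the LINE-related row X7C_LINE was higher in Double-LOF (39.4 ± 10.9 CPM, n = 10) than in DUX-LOF embryos (9.04 ± 6.65 CPM, SD, n = 9; log2 difference 2.16, adjusted p = 7.2e-05), and Ctrl embryos had 36.5 ± 25.9 CPM (n = 9). A gene that misses the threshold is not thereby shown to be equal in the 2 groups.

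Against SRF-LOF embryos, 3287 genes (27.5%) differed in Double-LOF embryos, 1709 higher (14.3%) and 1578 lower (13.2%), and 102 repeats (16.2%), 92 higher and 10 lower. All 6 Zscan4 genes and 23 of 31 maternal transcripts were lower in Double-LOF than in SRF-LOF embryos.

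The interaction asked whether the change of the double injection departs from the sum of the single changes on the log2 scale. It was called for 0 of 11940 genes (0%) by edgeR, with 822 genes at an unadjusted p under 0.05, and for 0 by DESeq2, with 1033. The smallest p belonged to Gdf5, a growth and differentiation factor of the BMP family (4.59 ± 1.04, adjusted p = 0.52). Of 628 repeats 2 (0.318%) passed. The first, IAPLTR2a, averaged 165 ± 82 CPM in Double-LOF, 82.1 ± 35.2 CPM in DUX-LOF, 104 ± 43 CPM in SRF-LOF and 236 ± 135 CPM in Ctrl embryos (interaction 2.20 ± 0.48, adjusted p = 0.022). The second, the ERVK row RLTR13D5, averaged 235, 133, 143 and 336 CPM in the same order of groups (2.07 ± 0.47, adjusted p = 0.025). In 5' reads 0 of 626 repeats passed, with 31 at an unadjusted p under 0.05.

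The members described above had these differences in each injection. Zscan4f differed from Ctrl by -3.62 in Double-LOF, -4.37 in DUX-LOF and -0.11 in SRF-LOF embryos. Mest differed by -3.63, -3.75 and 0.35, Eif4enif1 by 2.28, 2.26 and -0.30, Cfl1 by -1.31, -1.14 and 0.52, and IAPEz-int by 2.03, 1.65 and -0.10 in Double-LOF, DUX-LOF and SRF-LOF embryos. For Dusp5 the values were -3.27 in Double-LOF, -1.39 in DUX-LOF (adjusted p = 0.15) and -2.37 in SRF-LOF embryos (adjusted p = 0.083), so that of these 3 only the Double-LOF value passed the threshold. Dusp5 in Double-LOF embryos was not called against DUX-LOF (adjusted p = 0.78) or SRF-LOF embryos (adjusted p = 0.4). Trp53 differed by -2.55, -1.97 and -0.84, and Cldn6 by -3.32, -3.15 and -1.60 in the same order.

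**Figure D5:**
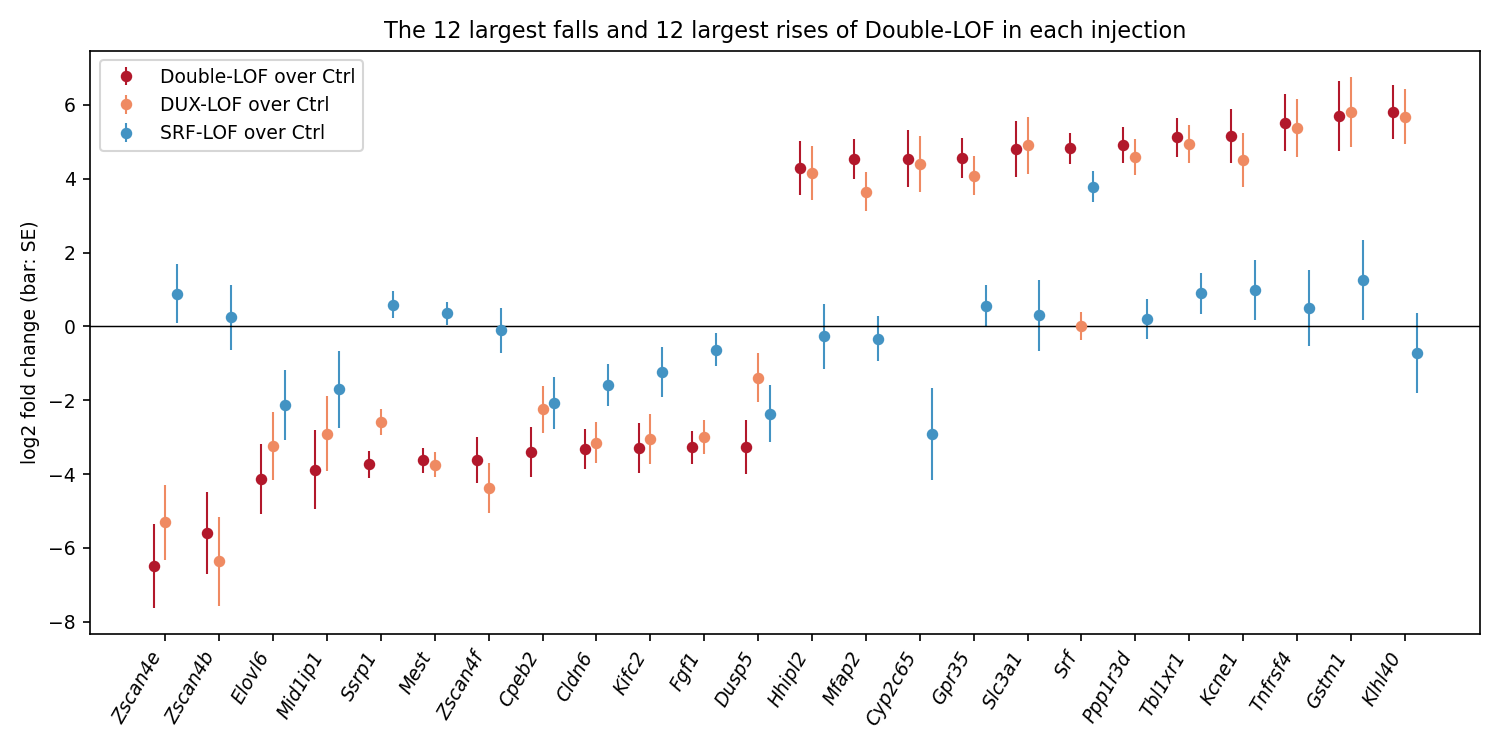
Log2 difference from Ctrl embryos in internal reads of the 12 largest falls and 12 largest rises of Double-LOF embryos, shown for Double-LOF, DUX-LOF and SRF-LOF embryos with standard errors as bars. All 3 contrasts use the same 9 Ctrl embryos. Srf stands at 4.82 in Double-LOF, 0.02 in DUX-LOF and 3.79 in SRF-LOF embryos, and Zscan4f at -3.62, -4.37 and -0.11.

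By lists, the Zscan4 cluster had 5 of 6 genes lower in Double-LOF and 6 of 6 in DUX-LOF embryos, and 0 called in SRF-LOF embryos (edgeR, 0 at an unadjusted p under 0.05). Ribosomal proteins had 23 lower in Double-LOF, 11 in DUX-LOF and 0 in SRF-LOF embryos, with medians of -0.94, -0.62 and -0.80, and 25 ribosomal protein genes in SRF-LOF embryos were lower at an unadjusted p under 0.05. Ribosome biogenesis had 16 lower in Double-LOF, 5 in DUX-LOF and 0 in SRF-LOF embryos, with medians of -0.68, -0.19 and -0.84, and the proteasome 15, 5 and 1, with medians of -0.94, -0.47 and -0.53. None of the members of these lists was called by edgeR between Double-LOF and DUX-LOF embryos. Over all genes tested 9.8% were lower in Double-LOF, 8.22% in DUX-LOF and 0.586% in SRF-LOF embryos, where 1.08% were higher. SRF-LOF was the smallest group, with 7 embryos. LINE-1 rows rose in 27 of 96 cases in Double-LOF and in 9 of 96 in DUX-LOF embryos, where 10.4% and 3.03% of all repeats rose. Members of the other maternal list were lower in 8 of 31 cases in Double-LOF and 13 of 31 in DUX-LOF embryos, while 6 of 31 were higher and 0 lower in SRF-LOF embryos.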

How the data were processed

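PolyA RNA of 35 single embryos was read as Smart-seq+5' libraries. Per embryo the authors deposited 1 table of raw counts from internal reads and 1 from 5' reads, per the file headers, for 54838 genes, 1395 repeat subfamilies and 92 ERCC spike-ins. Per the submitters' processing notes, alignment used STAR 2.7.11a and the GRCm38 build. How reads were assigned to rows (tool, strand, multi-mapping, annotation) is not given in the sources used here. Overlapping or antisense genes therefore cannot be told apart, and near-identical copies and repeats share reads. Like the internal ones, the deposited 5' tables held only whole-number counts, so they needed none of the rounding used for estimated counts. GENCODE M21 named 54809 of the gene IDs.

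Counts were tested with edgeR 4.0.16 (limma 3.58.1, R 4.3.3): library sizes and TMM factors from gene rows, filterByExpr, 1 quasi-likelihood fit of all 4 groups, and Benjamini-Hochberg adjustment separately for genes and repeats, with a threshold of 0.05. Repeat rows used the gene-based sizes. CPM use gene counts as the library total. Single values per embryo were compared by exact permutation in Python 3.11.15 over 92378 splits, and the fit was tested on simulated data. DESeq2 1.42.0, other scalings and filters, and leaving out embryos were the alternatives. Genes were named by size of change (the 12 largest in each direction at a mean of at least 10 CPM), by the smallest p within 43 gene lists (up to 4 each), by size among repeats (6 in each direction) and by interaction p (6). The 12 largest changes left out pseudogenes, Gm or Rik names and genes of opposite sign in 5' reads. The members and lists were chosen with earlier results of these data known. Counting intervals (95%) and the floor of 3 counts cover counting error only, since reads carry no molecular identifiers here.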

Additional observations from a re-analysis of the deposited data

Results flagged for a closer look

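A single embryo lay far from the rest of its group in 32 of 224 groups of values examined. The rule flags about 1 in 20 groups of independent, normally distributed values. Many genes here lie near 0 and all come from the same embryos, so that rate does not apply to them. Gene levels were compared on the log2(CPM + 1) scale. Double-LOF 7 stood apart most often, as the lowest embryo of its group for Fgf1 (0 CPM), Abcb5 (3.16 CPM), Mrtfa (3.16 CPM), Acta1 (0 CPM), Nr4a2 (1.58 CPM), Eif4enif1 (169 CPM, the other 9 at 315 to 487), Tet1 (11.1 CPM), Ehmt1 (17.4 CPM), Cd68 (0 CPM, the other 9 at 18.7 to 59.0) and Rps27a (0 CPM), and as the highest for Hdac2 (122 CPM). It also had the fewest genes at equal depth, 11239 in internal reads (the other 9 at 13370 to 15512) and 11689 in 5' reads (the other 9 at 15049 to 17501).

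Double-LOF 10 was lowest for Zscan4f (2.94 CPM), Gm5039 (0.98 CPM) and Ddit4l (1.96 CPM) and highest for Dusp5 (18.6 CPM, the other 9 at 0 to 3.8). Double-LOF 2 was lowest for Gstm1 (0 CPM), Tbl1xr1 (28.8 CPM), Mrtfb (34.5 CPM), Oas1d (145 CPM) and Tet3 (318 CPM). Ssrp1 was lowest in Double-LOF 6 (0 CPM) and Snrpg in Double-LOF 1 (25.2 CPM), while Astl was highest in Double-LOF 5 (109 CPM).

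Among Ctrl embryos, Ctrl 2 was lowest for Phlda2 (1.24 CPM, the other 8 at 40.1 to 335), Gadd45a (14.8 CPM) and Rps27a (42.0 CPM). Polr3a was lowest in Ctrl 5 (17.5 CPM), Mavs was lowest in Ctrl 10 (1.01 CPM), and Taf7l was seen in Ctrl 8 alone (1.16 CPM). Ctrl 6 had the most internal gene counts (2039475). The interaction test marked IAPLTR2a (2.20) and RLTR13D5 (2.07). The log2 difference of Double-LOF from DUX-LOF embryos was 1.01 for IAPLTR2a (adjusted p = 0.36) and 0.83 for RLTR13D5 (adjusted p = 0.57). That of SRF-LOF from Ctrl embryos was -1.19 and -1.24 (adjusted p = 0.12 for both), so neither of these 2 contrasts was called alone. DUX-LOF embryos were called lower than Ctrl embryos for IAPLTR2a (-1.52, adjusted p = 0.0031) and RLTR13D5 (-1.34, adjusted p = 0.0053). Double-LOF embryos were not called against Ctrl embryos (-0.51, adjusted p = 0.3 for both).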

How the results depend on the processing

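Counts of genes between Double-LOF and Ctrl embryos lay between 1619 and 3103 in internal reads under DESeq2 (2773), its size factors in edgeR (2295), scaling from gene and repeat rows (2360), no count filter (3103, 1902 higher and 1201 lower), a fit of both groups alone (1619), no library under 0.25 of the median total (2125, without Double-LOF 6) and without Double-LOF 6, 7 and 10 (2153, chosen after seeing the data). Spike-in scaling gave 1246 genes (734 higher, 512 lower) and 41 repeats (39 higher, 2 lower), and a fit of both groups alone 51 repeats. The cause was not tested. Leaving out 1 embryo gave 1937 to 2556 genes and 54 to 111 repeats. Between Double-LOF and DUX-LOF embryos 2 genes were called with no count filter and 1 otherwise. The sum of MT2 rows ranged from -1.03 to -0.63 when 1 embryo was left out, and was -0.29 in internal reads, -0.76 with spike-in scaling and -0.50 without the 3 doubted libraries.

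Of 155 called features selected for naming, 136 kept their call in all 19 fits without 1 embryo. Spike-in scaling ended 36 calls, the replicate block 23, 5' reads 20, leaving out the 3 doubted libraries 14 and a fit of both groups alone 10, while DESeq2 ended 0. Only Gm8332 changed sign among called features, with 0.24 in 5' reads. Among features not called, Duxf3 became -0.03 with the replicate block, -0.15 without the 3 doubted libraries, -0.86 in 5' reads and -0.05 to 0.66 without 1 embryo (-0.05 without Double-LOF 10). MERVL-int became -0.01 with the replicate block and -0.04 to 0.32 without 1 embryo (-0.04 without Double-LOF 2). MT2_Mm became 0.13 without the 3 doubted libraries and -0.41 to 0.04 without 1 embryo (0.04 without Ctrl 8).

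Double-LOF and Ctrl embryos share 9 replicate numbers, but same-numbered embryos deviated together with correlations of -0.568 to 0.214, of which 2 exceeded 0.1, and 1 embryo correlated best with its own number. The labels name no litter, injection day or batch, and whether same-numbered embryos share one was not tested. With the number as a block the replicate block fit called 1976 genes and 63 repeats between Double-LOF and Ctrl embryos, 2210 genes and 114 repeats in 5' reads, 2561 genes between Double-LOF and SRF-LOF embryos, 1 gene against DUX-LOF embryos and 0 genes for the interaction. With the block 0 of 10 Eif1a-like genes were called (Gm5039 -2.55, adjusted p = 0.058), and 3 of 10 late 2-cell markers were lower. Of 20 PRAME-like genes 2 were higher and 2 lower with the block. Depth limits Double-LOF 6 most, where 220921 gene counts leave low genes at 0.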
